A study of Caenorhabditis elegans with 2 samples.

Results

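The large ribosomal subunit protein genes of Caenorhabditis elegans were described here by their ChIP-seq signal for tagged C34B4.2. ChIP-seq sequences the DNA that was crosslinked to a protein. Members were the protein-coding nuclear genes of Ensembl release 115 (assembly WBcel235, the same sequence as ce11) whose symbol starts with rpl-, which gave 47 of 19973 genes. All animals were of strain OP552, which carries the unc-119(tm4063) allele on chromosome III and the transgene wgIs552, and which stably expresses C34B4.2 with GFP and FLAG tags at its C terminus. They were whole L1 larvae of both sexes, pooled, at 6 h after synchronization by starvation following bleaching. There were 2 biological replicates of 1 group, with no second group, and the promoter that drives the tagged protein is not given in the sources used here. The sample descriptions name an antibody against GFP, while the antibody label reads C34B4.2. In whole larvae, signal from few cells and weak signal in many cells cannot be told apart.

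The large subunit of the cytosolic ribosome joins amino acids into protein, and its proteins fold around the large ribosomal RNAs during a long assembly that starts in the nucleolus. The genes for these proteins are among the most strongly and broadly expressed genes of an animal, and growing larvae make ribosomes at a high rate. Names such as uL3 and eL15 follow the universal scheme, in which u marks a protein shared with bacteria and e one of eukaryotes without a bacterial counterpart. RefSeq, matched by WormBase gene ID, had an entry for all 47 members and called 45 of them ribosomal proteins. The other members were rpl-24.2, which RefSeq names as a putative assembly factor RLP24, and rpl-42, which it names as a protein with a NAM-associated domain.

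The authors deposited 267 peaks that passed the irreproducible discovery rate (IDR), a method that keeps peaks whose rank repeats between replicates. They also deposited 3 lists of 30000 candidate peaks, namely 1 per replicate and 1 from the pooled replicates. All 267 thresholded peaks stood at the top of the pooled list when ranked by signal, which is given in a deposited unit of unknown depth normalization. A summit is the base of highest signal in a peak, and it was given to a gene when it lay in the promoter window, the stretch between 1000 bp before and 200 bp after an annotated transcript start. Candidates in these lists include background regions by design, so a candidate alone does not mark a binding site. With 1 group no test between conditions was possible, and the main counts of members stand beside the same share over all protein-coding genes.

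The summits at rpl-3, rpl-20, rpl-35, rpl-15 and rpl-12 carried the highest pooled signals of the family, and the 101 bases centred on each are shown because 4 of them share short words. The sequences are from the RefSeq genome (WBcel235) and run 5′ to 3′ on the strand of the gene. Capitals mark ACGCAG and the overlapping word GACGCA, and further the word AACACGC, the word AAGTGTA and the word ACACTCG, all on either strand.
rpl-3, chrIII:3867514-3867614, plus strand: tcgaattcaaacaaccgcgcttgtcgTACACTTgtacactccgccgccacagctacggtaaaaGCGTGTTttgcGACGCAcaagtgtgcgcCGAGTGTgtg
rpl-20, chrIV:4750020-4750120, minus strand: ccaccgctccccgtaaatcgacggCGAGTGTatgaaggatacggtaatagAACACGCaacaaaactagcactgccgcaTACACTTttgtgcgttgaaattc
rpl-35, chrIII:7854635-7854735, plus strand: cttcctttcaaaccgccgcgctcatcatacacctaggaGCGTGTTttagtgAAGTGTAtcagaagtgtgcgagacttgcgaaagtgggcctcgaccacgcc
rpl-15, chrIV:654871-654971, minus strand: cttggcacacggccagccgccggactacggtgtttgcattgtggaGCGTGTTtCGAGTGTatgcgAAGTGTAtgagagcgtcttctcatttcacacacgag
rpl-12, chrIV:13240606-13240706, minus strand: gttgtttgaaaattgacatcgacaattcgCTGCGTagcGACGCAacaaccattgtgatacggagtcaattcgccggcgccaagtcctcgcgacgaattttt

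A thresholded summit lay at 7 of the 47 genes (14.9%), against 1.38% of all protein-coding genes. These were rpl-3, rpl-20, rpl-35, rpl-15, rpl-12, rpl-7A and rpl-24.2, with pooled signals of 230 to 707 and a median of 315, while the 267 thresholded peaks as a whole had a median of 153. A further 24 members had a pooled candidate below the threshold, and 16 had none, so 31 of 47 (66.0%) had a pooled candidate against 38.1% of all genes. The signals fell into separate ranges. The weakest thresholded member stood 2.15 times above the strongest of the rest, rpl-41.2 at 107, and the threshold itself lay between them at 112.

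**Figure D1:**
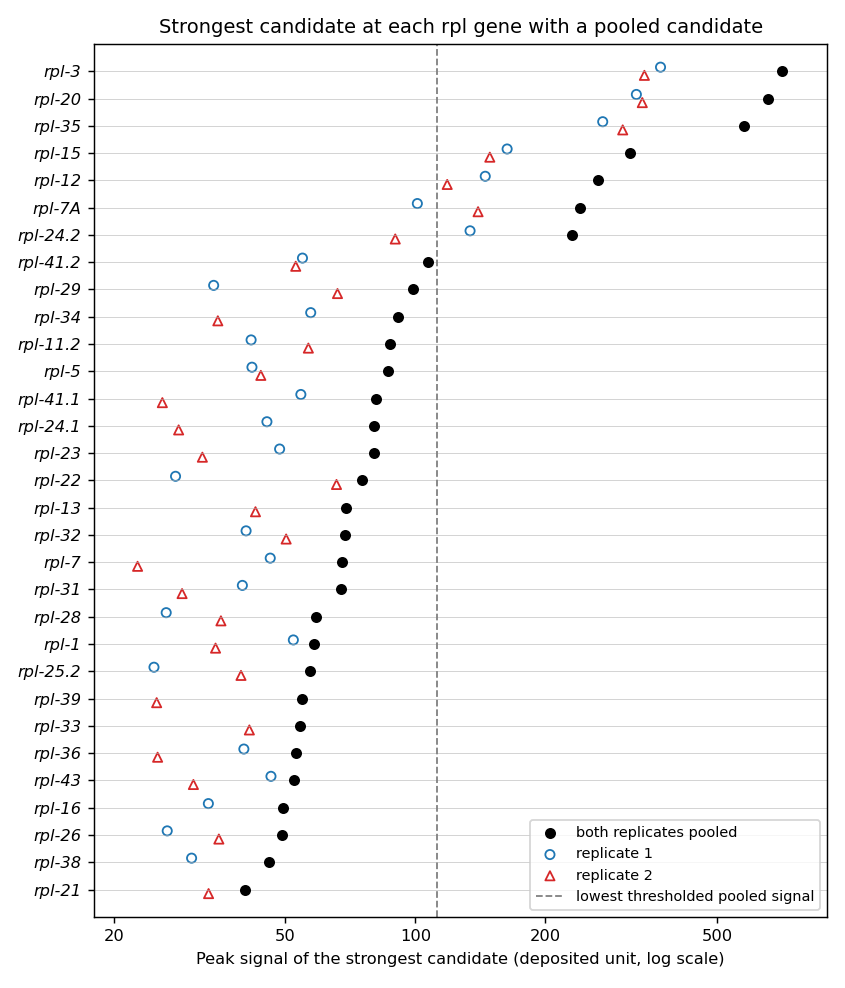
Signal of the strongest candidate summit in the promoter window of each of the 31 rpl genes with a pooled candidate, in the deposited unit on a log axis, for both replicates pooled (filled), replicate 1 (circles) and replicate 2 (triangles). The pooled signals of the 7 genes from rpl-3 to rpl-24.2 lie right of the dashed line at 112, the lowest pooled signal in the thresholded list, and the next gene, rpl-41.2, lies at 107.

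The strongest member was rpl-3, which encodes uL3, a protein that reaches towards the peptidyl transferase centre. Its peak (chromosome III, 3867455 to 3867671) had a pooled signal of 707 and rank 4 of all candidates, with 370 in replicate 1 and 339 in replicate 2, each of which also ranked it as number 4. The summit was intergenic, 290 bp upstream of the start of the gene (chromosome III, 3867854 to 3869587, plus strand). The remaining members that touch the peptidyl transferase centre had no pooled candidate. They were rpl-2 (uL2), with a single candidate of 25.2 in replicate 1, and rpl-10 (uL16), which is loaded late in the cytoplasm and had no candidate in any list.

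rpl-20, called rpl-18A in RefSeq, encodes eL20. Its peak on chromosome IV at 4749977 to 4750186 had a pooled signal of 654 and rank 6, with 325 in replicate 1 and 335 in replicate 2. The summit lay 292 bp upstream of rpl-20 and 170 bp upstream of Y17G9B.5 on the other strand, so the nearest start was that of the neighbour. rpl-15 encodes eL15, and its peak on chromosome IV at 654852 to 654999 had a pooled signal of 315 and rank 29, with 163 in replicate 1 and 149 in replicate 2. Its summit lay 345 bp upstream of rpl-15 and 469 bp upstream of K11H12.8 on the other strand. A second pooled candidate of rpl-15 lay 175 bp downstream of the start, with a signal of 94.4 and rank 488.

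The rim of the exit tunnel, through which the new protein leaves the ribosome, was represented by rpl-35, which encodes uL29. Its peak (chromosome III, 7854586 to 7854786) had a pooled signal of 575 and rank 7, with 271 in replicate 1 and 302 in replicate 2. The summit was 449 bp upstream of the start, the farthest among the 7 genes. The nearest upstream coding gene, ZK652.8 on the other strand, was 11497 bp away. Among the members, 7 others were counted here as lining or surrounding the tunnel, a list that need not be complete. They had no thresholded summit, so the share among these 8 genes was close to that of the whole family. They were rpl-31 (67.3), rpl-25.2 (56.9), rpl-39 (54.6) and rpl-26 (49.2), each with a candidate below the threshold, and rpl-4, rpl-17 and rpl-25.1 with no pooled candidate.

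rpl-12 encodes uL11 at the base of the stalk, where translation factors dock. Its peak on chromosome IV at 13240617 to 13240750 had a pooled signal of 265 and rank 46, with 145 in replicate 1 and 118 in replicate 2. The summit lay 5 bp upstream of the nearest rpl-12 start and 388 bp upstream of lin-54, a gene of the DREAM repressor complex, on the other strand. The stalk proteins proper are not named rpl- in Ensembl. Among these, rla-0 had a candidate of 63.3 at rank 4977, 952 bp upstream of its start, and rla-1 and rla-2 had none in the pooled list. The ubiquitin fusion gene ubq-2, whose product releases the large subunit protein eL40, had one of 43.3 at rank 23361.

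rpl-7A encodes eL8, which belongs to a family of proteins that bind kink-turns in RNA. Its peak on chromosome IV at 4390465 to 4390834 had a pooled signal of 241 and rank 54, with 101 in replicate 1 and 140 in replicate 2. The summit lay 60 bp upstream of rpl-7A and 194 bp upstream of set-21 on the other strand. A snoRNA gene, Y24D9A.9, lay 342 bp from the summit. Among the 7 summits, the next closest small RNA gene was the snoRNA gene K11H12.13, 560 bp from the summit at rpl-15.

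rpl-24.2 encodes the factor related to RLP24, which in yeast holds the place of eL24 during assembly and is exchanged for it in the cytoplasm. Its peak on chromosome I at 9669087 to 9669456 had a pooled signal of 230 and rank 62, with 134 in replicate 1 and 89.8 in replicate 2, ranks 46 and 115. The summit was 143 bp upstream of the start and inside an intron of C03D6.1, which lies on the other strand. rpl-24.1, which encodes eL24 itself, had its best pooled candidate 891 bp upstream, inside a coding exon of rps-10, with a signal of 80.4 and rank 1214. Its second candidate, 44 bp downstream of the start, had 67.4. Leaving out rpl-24.2 and rpl-42, which RefSeq does not call ribosomal proteins, 6 of the other 45 members had a thresholded summit.

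By the universal names, 18 members were u proteins and 27 were e proteins, counting the genes for L29, L32 and L41, for which RefSeq keeps the older names. The other 2 were rpl-24.2 and rpl-42. A thresholded summit lay at 3 of the u genes (rpl-3, rpl-35 and rpl-12) and at 3 of the e genes (rpl-20, rpl-15 and rpl-7A). Median pooled signals of the members with a candidate were 80.2 for the u genes and 69.2 for the e genes, over 11 and 19 genes. The difference was not tested.

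The replicates gave the 7 thresholded members similar signals. The threshold keeps peaks whose rank repeats between replicates, so part of this agreement was selected for. On the log2 scale, replicate 1 over replicate 2 was 0.12 at the median gene with an SD of 0.33 (n = 7 genes), and ran from -0.47 at rpl-7A to 0.58 at rpl-24.2. All 7 had a summit of each replicate within 100 bp of the pooled summit, as did 96.0% of all genes with a thresholded summit. The replicate summits of a gene lay at most 16 bp apart.

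All 7 were also among the 267 strongest candidates of each replicate on its own, where 0.831% of all genes were found. The pooled list is made from these same 2 replicates, so this count is not independent of the threshold. Over all genes, 166 were found there and 276 had a thresholded summit. The 7 members had ranks of 4 to 82 in replicate 1 and of 4 to 115 in replicate 2. Among the 24 members below the threshold, both replicates had a summit within 100 bp of the pooled one at 11, against 26.4% of all genes with a candidate below the threshold. Over the 18 with a candidate of both replicates in the window, which need not be at 1 site, the same log2 ratio was 0.26 at the median gene, with an SD of 0.69. Over all 4352 genes with a candidate in both replicates the median was 0.28 and the SD 0.45. The Spearman correlation between replicates over these 18 members was -0.32, given as a description. Their pooled signals were limited to the range below the threshold, and the pooled signal was 0.966 times the sum of the replicates at the median gene. Such a limit by itself lowers the correlation, so the value does not show that the replicates disagree. In all, 25 members (53.2%) had a candidate of both replicates in the window, against 21.8% of all genes. This count was 14 in a window of 500 bp before to 100 bp after the start. In the full window 18 members (38.3%) had both within 100 bp of their pooled summit, against 11.0%.

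**Figure D2:**
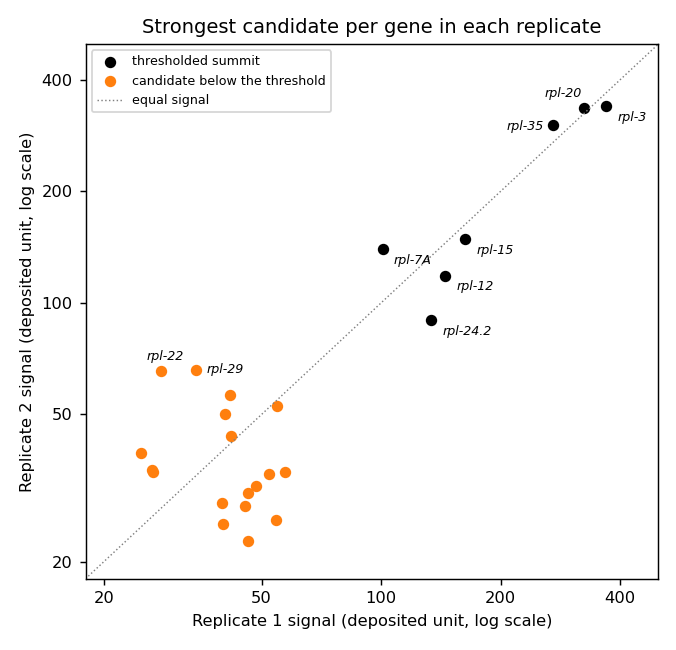
Signal of the strongest candidate in the promoter window in replicate 1 (x axis) and replicate 2 (y axis), both in the deposited unit on log axes, for the 25 rpl genes with a pooled candidate and one in each replicate. The 7 thresholded genes follow the dotted line of equal signal from 89.8 upwards, while rpl-22 and rpl-29 lie above it, with about 66 in replicate 2 and 27.8 and 34.1 in replicate 1.

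Just below the threshold came rpl-41.2, one of the pair of genes for L41, a very small protein at the interface of the subunits. It had a pooled signal of 107 at rank 304, with 54.7 in replicate 1 and 52.8 in replicate 2, and its summit 317 bp upstream. The next, rpl-29, had 98.7 at rank 408, rpl-34 had 91.2 at rank 593, rpl-11.2 had 87.3 at rank 741, and rpl-5 had 86.3 at rank 795. These 5 genes (10.6%) made up the members whose best candidate ranked from 268 to 1068, a band that held 1.78% of all genes. The best candidates of rpl-34 and rpl-5 lay inside the coding sequence of the gene, 98 and 88 bp downstream of the start. The other members among the 10 strongest below the threshold were rpl-41.1 (81.1), rpl-24.1 (80.4), rpl-23 (80.2), rpl-22 (75.2) and rpl-13 (69.2).

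At 8 of the 24 lower summits a candidate of replicate 2 lay within 100 bp and none of replicate 1, and at 4 the reverse held. The matching shares over all genes are not given here, so this split is not read as a trait of the members. Among the 8, rpl-29 and rpl-22 had the highest signals in replicate 2. There the strongest candidate of rpl-29 had a signal of 66.0 and rank 200, and that of rpl-22 had 65.6 and rank 204, both inside that replicate's 267 strongest. In replicate 1 neither had a candidate within 100 bp of the pooled summit. The best of replicate 1 elsewhere in the window had 34.1 for rpl-29 and 27.8 for rpl-22. The pooled summit was intergenic in both genes, 273 bp upstream of rpl-29 and 243 bp upstream of rpl-22. The other 6 were rpl-13, rpl-32, rpl-25.2, rpl-39, rpl-33 and rpl-21, with 25.2 to 50.2 in replicate 2. The 4 with a candidate of replicate 1 alone within 100 bp were rpl-11.2, rpl-41.1, rpl-43 and rpl-38. Elsewhere in the window replicate 2 had 56.5 at rank 299 for rpl-11.2, above the 41.6 of replicate 1. It had 25.9 for rpl-41.1, 30.6 for rpl-43 and none for rpl-38. At rpl-16 neither replicate had a candidate within 100 bp of the pooled summit. Why a replicate lacked a candidate was not tested.

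Some large subunit proteins have more than 1 gene among the members. The neighbouring genes rpl-41.1 and rpl-41.2 on chromosome I had pooled signals of 81.1 and 107, and in replicate 1 they had 54.3 and 54.7. In replicate 2 the candidate of rpl-41.1 had 25.9 and lay at another place than the pooled summit, so that its replicate values are not of 1 site, while rpl-41.2 had 52.8. Of the genes for uL5, which enters the subunit together with uL18 and the small 5S RNA, rpl-11.2 on the X chromosome had 87.3, 606 bp upstream of its start, and rpl-11.1 had no pooled candidate and 30.3 in replicate 2 alone. Their partner rpl-5, the gene for uL18, had 86.3. Of the uL23 genes, rpl-25.2 had 56.9, with 39.4 in replicate 2 and none of replicate 1 within 100 bp of the pooled summit, and rpl-25.1 had no candidate in any list. rpl-36 (eL36) had 52.8, and rpl-36.A, which RefSeq names as eL42, had none; these are different proteins despite their symbols.

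Of the 16 members with no pooled candidate, 8 had no candidate in either replicate. These were rpl-10, rpl-42, rpl-36.A, rpl-37, rpl-9, rpl-18, rpl-25.1 and rpl-19. A candidate of replicate 1 alone lay at rpl-4, rpl-14 and rpl-2, with signals of 25.2 to 35.5. A candidate of replicate 2 alone lay at rpl-17, rpl-27, rpl-30, rpl-6 and rpl-11.1, with signals of 20.4 to 30.3. The lists end at 24.7 in replicate 1, 20.1 in replicate 2 and 39.5 in the pool, so these values lie close to the floor. A gene with no candidate is one that these lists do not reach, not a measured absence. The shares of all genes with a candidate of a single replicate and none in the pool are not given here. The weakest pooled candidates were those of rpl-38 (45.8) and rpl-21 (40.2). The remaining members with a candidate, rpl-32, rpl-7, rpl-28, rpl-1, rpl-33, rpl-43 and rpl-16, had pooled signals between 49.3 and 68.6.

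The thresholded summits all lay upstream of the annotated start, from 449 to 5 bp, with a median of -290 bp. Over all 276 genes with a thresholded summit the median was -245.5 bp, and 95.3% of summits were upstream. Of the 24 lower candidates at members, 17 lay upstream and 7 downstream, against 76.4% upstream over all genes with a candidate below the threshold. The candidate of rpl-31 lay 229 bp downstream of the outer start and was kept through a later start of the same gene. Many worm messages receive a spliced leader by trans-splicing, so an annotated start may lie downstream of the true one. Outside coding genes lay 6 of the 7 thresholded summits of members, against 82.8% of the 192 best thresholded promoter summits of all genes. Of the 24 lower summits of members 14 lay there, against 41.8% of the 6557 lower ones of all genes. Coding exons held none of the thresholded summits at members, against 6.25% over all genes, and 6 of the 24 lower ones, against 30.8%.

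**Figure D3:**
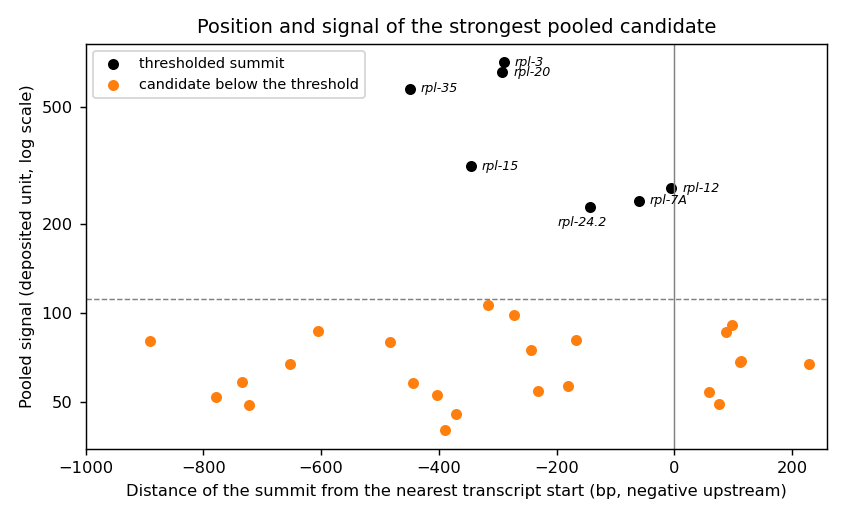
Distance of the strongest pooled summit from the nearest transcript start of the gene (x axis, bp, negative upstream) and its pooled signal (y axis, deposited unit, log scale) for 31 rpl genes. The 7 thresholded summits all lie left of the start at 0 and above the dashed line at 112, and 7 of the 24 weaker summits lie right of the start.

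Promoters were shared with a divergent neighbour at 4 of the 7 summits, namely those with Y17G9B.5, K11H12.8, lin-54 and set-21. Of all 196 thresholded summits in promoter windows, 80 were shared by windows of 2 or more genes. At these 4 the data do not say which gene the signal belongs to. The same limit holds for 17 of the 24 lower summits of members, which also lay in the window of another gene. At rpl-3, rpl-35 and rpl-24.2 no other promoter window held the summit. The nearest upstream coding gene of rpl-3 was acs-19 on the same strand, 755 bp away. Among the 40 members without a thresholded summit, 25 had a coding gene on the other strand within 1000 bp upstream, and 5 of the 7 with one did. The share over all genes is not given here.

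Chromosome IV held 7 members, of which rpl-20, rpl-15, rpl-12 and rpl-7A had a thresholded summit. Chromosome I held 15 members, of which rpl-24.2 had one, and chromosome III held 9, of which rpl-3 and rpl-35 had one. None of the 9 members on chromosome II, the 5 on V or the 2 on X had a thresholded summit. Over all protein-coding genes the share with a thresholded summit was 1.65% on IV, 2.08% on I, 2.92% on III, 1.25% on II, 0.721% on V and 0.22% on X.

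The summits were rich in G and C. The mean GC content of the 101 bases at the 7 summits was 51.6% ± 2.58 (SD, n = 7), against 48.8% ± 7.49 (SD, n = 267) at all thresholded peaks. At the 24 lower summits of members it was 47.0% ± 9.27 (SD, n = 24), against 39.4% ± 7.99 (SD, n = 6557) at the best promoter candidates of all genes below the threshold. Of these summits, those at rpl-34, rpl-5, rpl-24.1, rpl-13, rpl-28 and rpl-16 lay in coding exons, and their part in the GC content was not tested.

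GACGCA and ACGCAG, words that an earlier analysis picked on these same peaks, were searched on both strands within 50 bp of the summit. They overlap each other in part. GACGCA lay at rpl-3, rpl-12 and rpl-24.2, that is at 3 of the 7 summits, against 19.5% of all thresholded peaks and 3.31% of lower promoter candidates. Within 25 bp of the summit it lay at 1 of the 7. ACGCAG lay at rpl-12 alone, against 48 of the 267 thresholded peaks. In rpl-12 the pair lay 3 bases apart on opposite strands, as the capitals in its sequence show. The longer word GAGACGCAG lay at none of the 7 and at 8.99% of all thresholded peaks, and it was present at rpl-41.2 and rpl-21. TATAAA, the word TTTCAG and the word CACGTG lay at none of the 7, against 5.62%, 8.24% and 5.24% of thresholded peaks. In promoter windows of 1201 bases, GACGCA was present at 15 of 47 members and at 4992 of all 19973 genes, and ACGCAG at 16 of 47 members and at 4770 of all genes.

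Words of 7 bases shared by the summits of members were looked for after their values were seen. AACACGC and AAGTGTA, on either strand, were each present at rpl-3, rpl-20, rpl-35 and rpl-15. AACACGC lay at 15 of 267 thresholded peaks (5.62%) and 0.747% of lower promoter candidates, and AAGTGTA at 7 of 267 (2.62%) and 1.4%. Of the 7 thresholded peaks with AAGTGTA, those 4 were at members. ACACTCG was present at rpl-24.2, rpl-3, rpl-20 and rpl-15, and at 13 of 267 thresholded peaks. The summits of rpl-35 and rpl-15 shared a run of 11 bases, GGAGCGTGTTT, found at 5 thresholded peaks and at 28 of 19973 promoters. The counts for ACACTCG and for the run also include the members in which they were found. A match is a description of the letters and does not mark a site.

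Longer runs were shared by other members, again found after the values were seen, and their windows are shown because the same 16 bases stand in promoters of different chromosomes. Capitals mark the shared run. All sequences are on the strand of the gene and from the same RefSeq genome.
rpl-29, chrIV:13881902-13882002, plus strand: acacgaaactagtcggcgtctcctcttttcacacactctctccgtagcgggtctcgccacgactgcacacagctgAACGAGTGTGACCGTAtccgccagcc
rpl-22, chrII:5055323-5055423, plus strand: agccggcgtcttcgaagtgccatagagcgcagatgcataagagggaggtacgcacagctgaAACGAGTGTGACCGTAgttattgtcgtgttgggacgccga
rpl-7A, chrIV:4390600-4390700, minus strand: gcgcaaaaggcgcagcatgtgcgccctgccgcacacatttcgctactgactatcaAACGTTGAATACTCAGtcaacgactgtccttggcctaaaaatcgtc
rpl-39, chrV:7776260-7776360, minus strand: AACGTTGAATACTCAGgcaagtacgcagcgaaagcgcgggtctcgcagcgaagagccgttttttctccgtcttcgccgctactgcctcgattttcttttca

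The run shared by rpl-29 and rpl-22 was present in 10 of 19973 promoter windows, at 1 thresholded peak and at 2 of 6557 lower promoter candidates. The 2 lower candidates were those of rpl-29 and rpl-22 themselves. Those are the genes that had signals of 66.0 and 65.6 in replicate 2 without a matching candidate in replicate 1. The run shared by rpl-7A and rpl-39 was present in 15 promoter windows, at 3 thresholded peaks and at 2 lower candidates, counting those of rpl-7A and rpl-39. Where rpl-7A had a pooled signal of 241, rpl-39 had a pooled signal of 54.6, with 25.2 in replicate 2 and no candidate in replicate 1, and its summit also lay in the windows of rps-30 and C26F1.3.

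Members had narrow peaks where their signal was high. The deposited width was below the full 370 bp at rpl-3, rpl-20, rpl-35, rpl-15 and rpl-12, from 134 to 217 bp, and full at rpl-7A, rpl-24.2 and all 24 lower candidates. Of the 46 strongest peaks of the series, down to rpl-12, 36 were narrower than 370 bp, so the narrow peaks of members do not set them apart. All 7 thresholded members had a deposited −log10 q of 2.10, the highest value in the pooled list, while rpl-41.2 had 0.39. The value was the same from rank 4 to rank 62, so it does not order these members. Its share over all thresholded peaks is not given here.

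Small subunit genes, taken as context by the symbol rps-, were counted by the same rules. A thresholded summit lay at 7 of 47 rpl genes (14.9%) and at 8 of 31 rps genes (25.8%), led by rps-12 (313), rps-1 (265) and rps-19 (205). The highest signal was 707 among rpl genes and 313 among rps genes. Among the strongest candidates of each replicate were 7 rpl genes and 4 rps genes (12.9%). A pooled candidate lay at 66.0% of rpl genes and 83.9% of rps genes, with median signals of 75.2 and 66.5. The difference between the subunits was not tested.

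**Figure D4:**
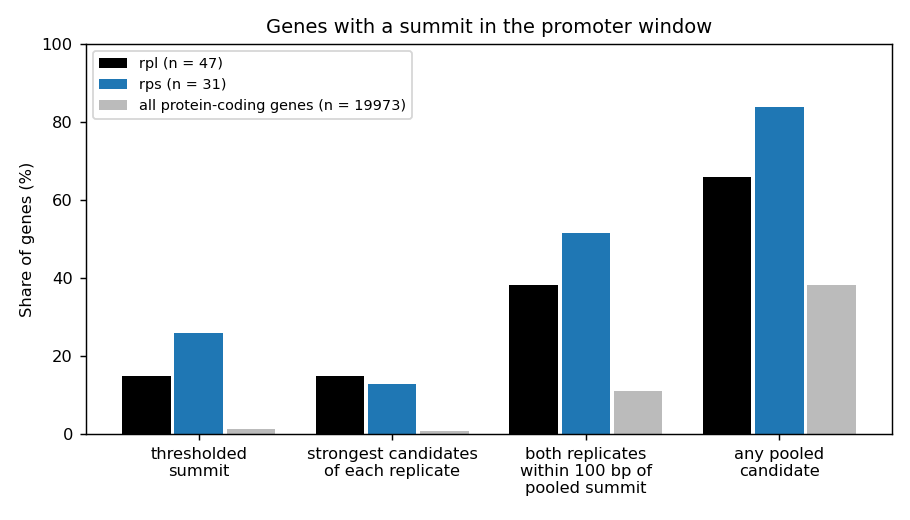
Share of genes (%, y axis) with a summit in the promoter window under 4 rules (x axis), for 47 rpl genes, 31 rps genes and 19973 protein-coding genes. The rpl genes stand at 14.9%, 14.9%, 38.3% and 66.0% from left to right, and all protein-coding genes at 1.38%, 0.831%, 11.0% and 38.1%.

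Other genes of ribosome production and use were counted in the same way, against 1.38% of all genes with a thresholded summit. Of 31 ribosome assembly genes, 1 had a thresholded summit, larp-1 (134), followed by pro-1 (96.3) and rbd-1 (89.2). None of 7 genes of RNA polymerase I and its factors had one, and the highest were rpac-19 (64.4), rpoa-2 (62.3) and tif-1A (55.5). Of 41 mitochondrial large subunit genes, 3 had one, mrpl-18 (133), mrpl-28 (127) and mrpl-12 (124). Of 8 elongation factor genes 3 had one, eef-2 (235), iff-2 (183) and eef-1A.1 (112), the last being the weakest peak of the thresholded list. Median pooled signals of genes with a candidate were 75.2 for rpl genes and 86.2 for elongation factor genes, and eef-2 stood above rpl-24.2. rpl-3, rpl-20, rpl-35, rpl-15, rpl-12 and rpl-7A each stood above every gene of these lists, of which eef-2 was the highest.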

How the data were processed

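ChIP-seq peak lists were used for 2 biological replicates of L1 larvae with tagged C34B4.2. Each ce11 list is a narrowPeak table, derived from alignments and a control file per the sample descriptions deposited beside it. The sources used here do not give the aligner, peak caller, IDR threshold or read depth, so no precision of single signals could be given. The signal values and the −log10 q values are the authors' deposited values. The ce10 lists were not used.

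Summits (start + offset + 1) were assigned to Ensembl release 115 genes with Python 3.11.15 and pandas 2.3.3. The strongest candidate in a window represents the gene. On 400 simulated summits at genes with a single annotated start the assignment was correct for 400. Genes with several starts were not simulated. Named genes are all thresholded members, the 10 next strongest, paralogs, members with no pooled candidate, genes sharing a summit, and the 3 strongest genes of each context list. Members, lists and motifs were chosen with earlier results of these data known, so no set test or p-value is given.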

Additional observations from a re-analysis of the deposited data

How the results depend on the processing

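The count of 7 rpl genes with a thresholded summit was recomputed under 12 alternatives and stayed within 6 to 9. It was 6 when each summit went only to its nearest start, which gives the rpl-20 summit to Y17G9B.5, and 6 with RefSeq's own rpl- symbols or products, settings chosen after seeing the data. With the strongest 267 candidates of replicate 1 or of replicate 2 alone it was 7 to 9, and in replicate 2 the added genes were rpl-29 and rpl-22. The count of 31 with a pooled candidate ranged from 23 to 42 over 10 alternatives, and that of 7 among the strongest candidates of both replicates from 6 to 7. The 25 members with a candidate in both replicates became 14 in a window of 500 bp upstream to 100 bp downstream. GACGCA lay at 1 of the 7 summits within 25 bp, and TTTCAG at 2 within 100 bp. In all, 55 of 58 alternative values stayed within 1.5 times the reported count, or within 1 SD for the log2 ratio and the summit position. These SDs were taken over genes, of the log2 ratio and of the distance between replicate summits. Some alternatives could not move a count, such as adding stalk and ubiquitin fusion genes, none of which had a thresholded summit. The total is therefore not a measure of precision. No paired analysis was possible because there is 1 group. Read depth and the untagged background were not analysed here, which limits what weak candidates and the thresholded peaks can show. Whether the strong peaks depend on the tagged protein was not tested.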
